A study of Mus musculus with 87 samples.

Results

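Inherited insertions of ETn elements were compared between mice of mixed B6/129 background and mice of the C57BL/6 (B6) strain, locus by locus, by presence, absence and dose. A locus was a genomic place where reads paired with an ETn repeat clustered in at least 1 library, and it counted as inherited where at least 2 libraries of the same strain background held 100 RPM or more (reads in the locus per 1e6 ETn-paired reads of the library). Of 5018 loci found over the 87 libraries of the series, 2280 met this rule. The comparison rests on 13 libraries labelled B6x129X1/SvJ (F1) and 14 libraries of B6 mice, each from genomic DNA of 1 animal.

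ETn elements are endogenous retroviruses of the mouse that lack working genes of their own and are copied with proteins supplied by related elements. A full element consists of an internal region between identical long terminal repeats (LTRs), and each inherited copy sits at a fixed chromosomal position that a given inbred strain either has or lacks. The study kept reads whose mates overlapped ETn elements, the related ETnERV elements, which code for these proteins, or their LTRs. The loci called ETn here pool all of these, and solitary LTRs can be among them. In a cross between strains, a copy that only 1 parental strain carries is expected on 1 chromosome of each pair (1 dose), and matings between such animals can give 0, 1 or 2 doses.

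All animals came from the study of Chr4-cl, a chromosome 4 cluster that encodes KRAB zinc finger repressors and was deleted with Cas9. The deletion was first bred on B6 and then brought into the mixed background by mating with 129X1/SvJ. On the B6/129 side, the parents T3913 (female, ear) and T3921 (male, tail) were labelled Chr4-cl KO/WT, meaning that 1 allele was deleted. Their offspring were 4 animals labelled KO/KO (T09673 and T09674, female blood; T00436, female tail; T00869, male ear) and 3 labelled WT (T00434 and T00435, female, and T00464, male, all tail). A second generation of 4 KO/KO animals (C6427 and C6428, female, and C6429 and C6430, male, all ear) came from T09673 and T00869, so that all 11 offspring descend from a single pair. The B6 side held 2 WT females (T09655 and T09656, blood) and 12 KO/KO animals from 2 matings and their descendants. These were the parents T2379, T2613, T2680 and T2682, 3 animals labelled F3 and 5 labelled F4, from tail, ear, spleen or blood. No library of the 129X1/SvJ strain itself was analysed here, and the sources used here give no ages.

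The depth ran from 525419 to 1046650 ETn-paired reads per library. The share of reads on the Y chromosome was 0.143 to 0.164% in males and at most 0.0257% in females. The B6 KO library T2379 stood apart. It was the shallowest, 6.088% of its reads lay in regions of a single read against at most 1.08% in the other 26 libraries, and 44.9% of 1991 autosomal loci deviated by more than 1.5-fold from the mean of the other B6 libraries, against at most 1.21% in any other B6 library. The X ratio, the dose classes and the counts of differing loci are also given without T2379, as are B6 ranges that end in it. The library of T00869 had the most reads at loci that the animal lacked, with a median of 9.50 RPM at 14 such loci against at most 1.32 RPM in the other 10 offspring.

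The deletion itself could be followed in the reads. The guides that cut its ends match the minus strand of chromosome 4 in mm9 and are shown with the bases that follow them in the genome, the protospacer-adjacent motif that Cas9 needs, in capitals.
Guide 1 (chr4:144973820-144973839): caaaggggctcctcgatggaTGG
Guide 2 (chr4:147227524-147227544): gtttatggccgtgctaaggtcAGG
They enclose 2.25 Mb. Of the 3 inherited loci inside, the one at chr4:145080501-145083011, between genes and nearest to Gm13225, held 525 and 534 RPM in the B6 WT animals, 2.45 to 36.2 RPM in the 12 B6 KO animals and 1.38 to 38 RPM in the 8 B6/129 KO animals. Both KO/WT parents held 402 RPM, which is 0.759 of the B6 WT mean. The 3 offspring labelled WT held 535, 560 and 570 RPM, or 1.05 of the B6 WT mean, above both parents. The locus at chr4:145019453-145021647 gave the same order, with 288 and 329 RPM in the parents, 395 to 433 RPM in the WT-labelled offspring and at most 20.4 RPM in any KO animal. KO and non-KO labels went with the reads in all 27 libraries at these 2 loci. The study's results section describes the non-KO littermates as heterozygous, whereas its methods section names KO and WT offspring and the labels used here give WT. The third locus, at chr4:146917867-146925152, kept 49.4 to 221 RPM in the B6 KO animals and 52.3 to 115 RPM in the B6/129 KO animals, against 783 and 785 RPM in B6 WT. The parents held 458 and 423 RPM there, and the WT-labelled offspring held 541 to 569 RPM, which is 0.713 of the B6 WT mean. The first base of guide 1 has no match there and is not shown.

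Of the 2280 inherited loci, 2019 (88.6%) were called in all 27 libraries at 10 RPM or more. A further 93 loci (4.08%) were called in every B6 library and missing from at least 1 B6/129 library, and 81 loci (3.55%) had no call in any B6 library. The remaining 87 loci (3.82%) were called in some B6 libraries but not in all. The counts ended at the threshold without a gap, since 31 members lay between 100 and 110 RPM by the second highest library of a side, and 26 loci between 90 and 100 RPM were left out. The lowest member stood at 100.3 RPM and the highest locus left out at 99.5 RPM. The parents called more members (2247 and 2249) than any B6 library (2151 to 2177). The 81 loci count in both parents and by definition in no B6 library, which largely fixes this order. The B6/129 mice thus carried nearly all B6 loci and, beside them, a set that no B6 mouse had.

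**Figure D1:**
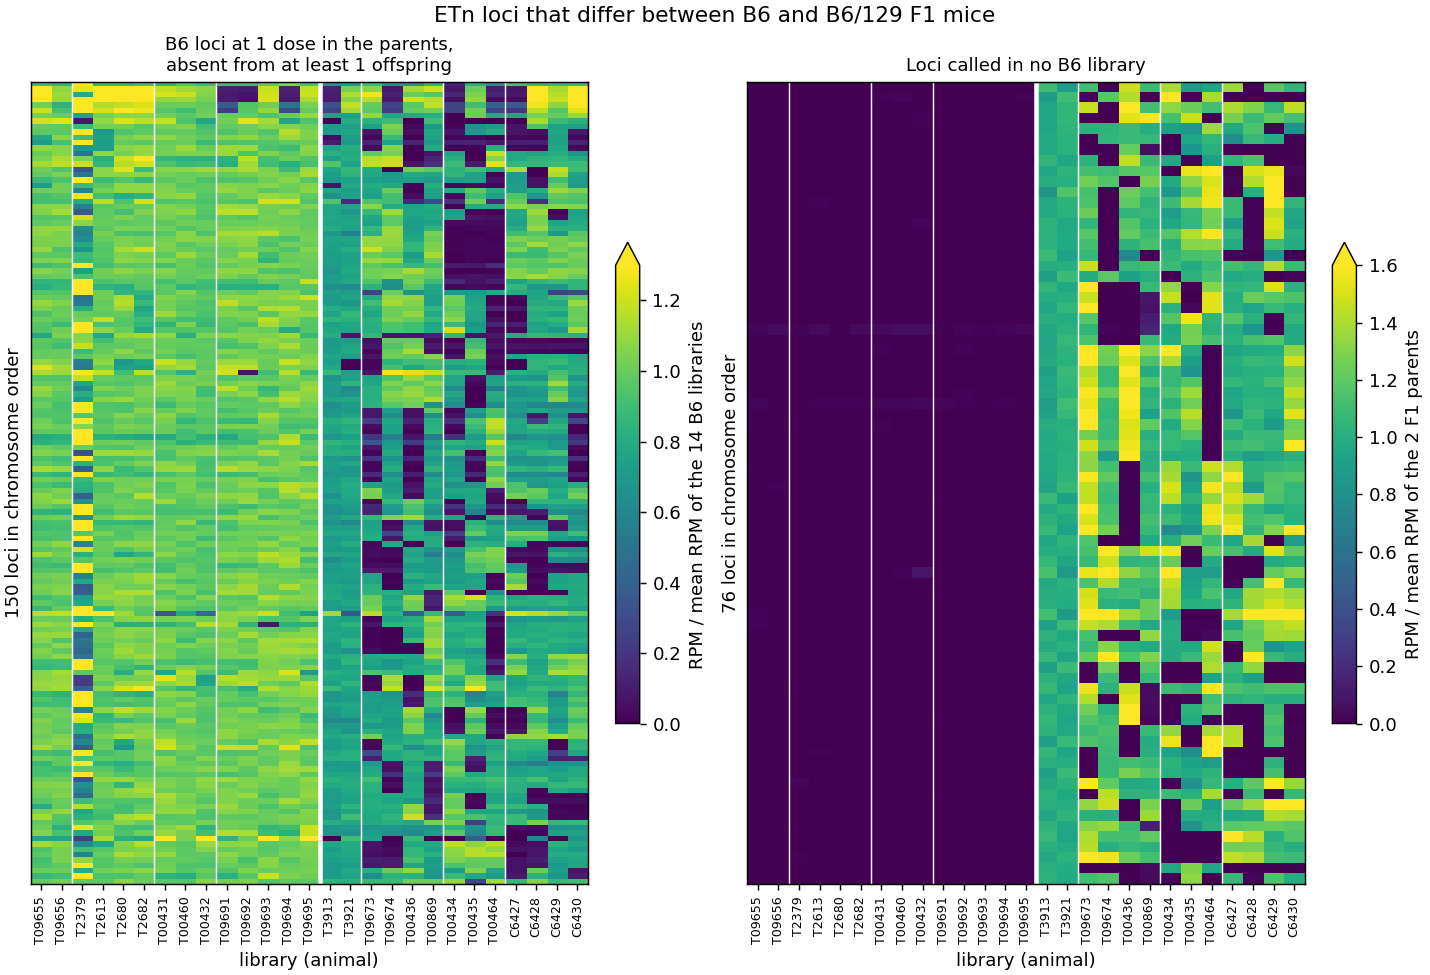
Each row is a locus and each column a library, with the colour giving the RPM relative to the mean of the 14 B6 libraries (left, 150 B6 loci) or of the 2 B6/129 parents (right, 76 loci called in no B6 library). A thick white line separates the B6 from the B6/129 libraries and thin lines separate the groups. Both parents show a reduced level at most loci on the left and an even level on the right, while the offspring switch between absence and higher levels in runs of neighbouring loci.

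How far RPM follows dose was read from the X chromosome, of which males have 1 copy and females have 2. At 120 X loci called in every B6 library, the level of the 8 B6 males was 0.737 to 0.785 of the female mean, with a median of 0.763. Of the 6 females, 5 lay between 1.01 and 1.03, and T2379 lay at 0.908. The groups did not overlap, and the difference of -0.39 on the log2 scale had p = 0.000333 in an exact two-sided permutation test over libraries, the smallest value that 6 against 8 libraries can give. Without T2379 the males were at 0.751 of the females (log2 difference -0.41, exact permutation p = 0.000777, again the smallest possible). Single loci varied little around this value, with an SD of 0.0322 over the 120 loci, and the median was 0.744 in the weaker and 0.75 in the stronger 60 loci. On the X chromosome 1 copy therefore gave 0.751 of the RPM of 2 doses, well above 50%, in these libraries.

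This scale decides how many loci count as having 1 dose. With the bounds set first, a log2 ratio of parents to B6 between -1.5 and -0.5, 38 of 1991 autosomal B6 loci (1.91%) had 1 dose in the parents, 1942 had 2 doses and 7 were above 0.5. With the upper bound moved to the midpoint of the X chromosome ratio (-0.21 on the log2 scale, a ratio of 0.866), which was chosen after seeing the data, 216 loci (10.8%) had 1 dose and 1764 (88.6%) had 2. All 38 loci of the first bounds were among the 216. With the B6 mean taken without T2379, 32 loci had 1 dose by the first bounds, 27 of them among the 38, and 202 by the X bounds, 185 of them among the 216.

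**Figure D2:**
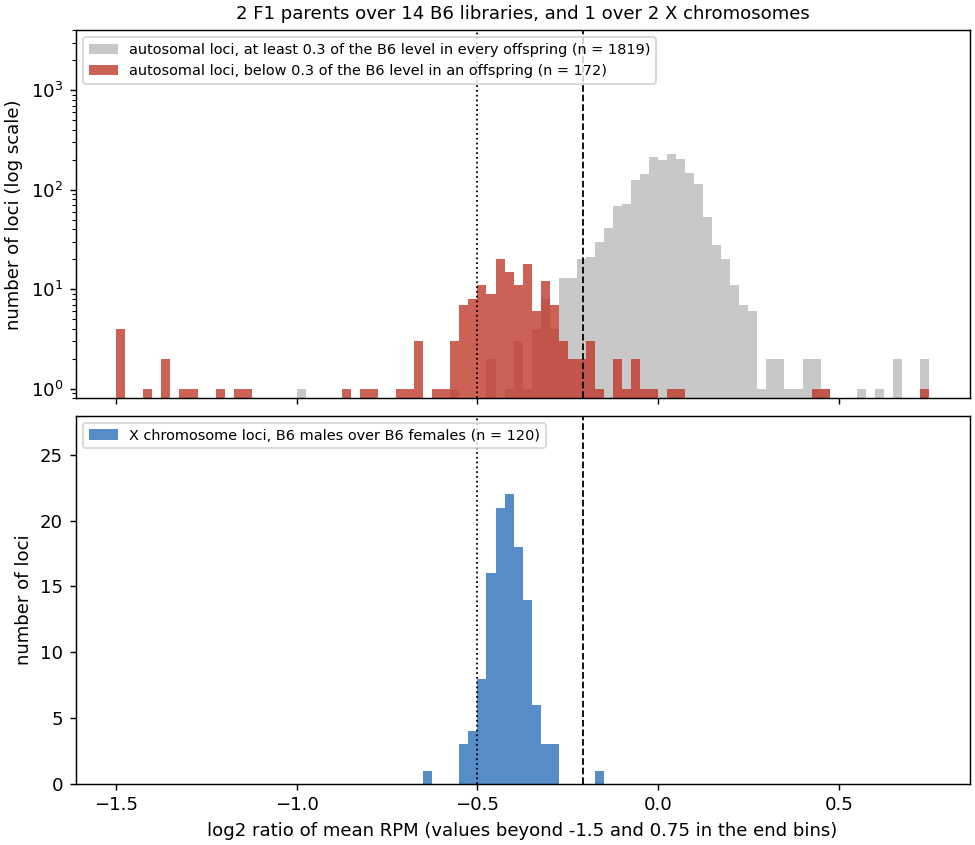
The upper panel gives the number of autosomal B6 loci (log scale) by the log2 ratio of the mean RPM of the 2 parents to that of the 14 B6 libraries, for loci that fell below 0.3 of the B6 level in an offspring (red, n = 172) and loci that did not (grey, n = 1819). The lower panel gives the same ratio for B6 males over B6 females at 120 X loci, with a median ratio of 0.749, between the dotted bound at -0.5 and the dashed bound at -0.21.

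The level of a locus in the parents went with its fate in the offspring, which took no part in the dose classes. Among the 216 loci at 1 dose by the X bounds, 150 (69.4%) fell below 0.3 of the B6 level in at least 1 of the 11 offspring, against 17 of the 1764 loci at 2 doses (0.964%). Of these 17, 13 also fell below 0.3 of the B6 median in a B6 library. The 155 autosomal loci that an offspring lacked and both parents carried had a median ratio of 0.756 in the parents (quartiles 0.726 and 0.8). It was 0.742 in T3913 and 0.767 in T3921, and 0.737 and 0.772 when each parent was set against the B6 libraries of its own tissue (4 ear and 3 tail libraries). The 1819 loci present in every offspring had a median ratio of 1.01. Leaving out T2379 gave 0.753 and 1, and 151 of 202 loci at 1 dose (74.8%) fell below 0.3 in an offspring.

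Absence was also a matter of degree. Where an offspring had 0 doses of a B6 locus, by a level below 0.3 of the B6 mean, reads remained in most cases, with a median of 12 RPM, and 53.4% of 393 such combinations of locus and animal were still at 10 RPM or more. At loci called in no B6 library this applied to 3.54% of 198 combinations, 7 in all, each of them in T00869. By definition these loci were under 10 RPM in every B6 library, which left out places with more background reads. B6 loci passed no such filter, so these shares cannot be set against each other. At strong B6 loci the threshold of 10 RPM missed absences. By the relative rule 180 B6 loci were missing from at least 1 B6/129 library, in place of 93.

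The capture probes were designed on ETn copies of the reference genome. A probe of the study matched within 1000 bp of 63.0% of the 216 loci at 1 dose, 33.4% of the 1764 loci at 2 doses and 0 of the 81 loci called in no B6 library, and 35.4% of all members. Probes at 1-dose loci had a median of 0 base changes to the nearest other probe, against 2 at loci with 2 doses. Probe sequences are shown for 3 loci that the offspring could lack and for 2 of the strongest loci, present in every library, to give an idea of this likeness. Each begins with the first base of an LTR, whose terminal TG is in capitals, and is given 5′ to 3′ with mm9 coordinates.
Arntl2 (chr6:146740072-146740191, + strand): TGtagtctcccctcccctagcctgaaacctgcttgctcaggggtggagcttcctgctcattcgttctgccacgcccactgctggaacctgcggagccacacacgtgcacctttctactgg
Nr1d2 (chr14:19017253-19017372, + strand): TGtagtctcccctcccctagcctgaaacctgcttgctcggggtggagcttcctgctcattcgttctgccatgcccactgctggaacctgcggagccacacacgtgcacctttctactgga
Olfr855 (chr9:19407062-19407181, - strand): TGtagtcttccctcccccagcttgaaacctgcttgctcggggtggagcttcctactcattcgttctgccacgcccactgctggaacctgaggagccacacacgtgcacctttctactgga
Olfr608 (chr7:110625822-110625941, - strand): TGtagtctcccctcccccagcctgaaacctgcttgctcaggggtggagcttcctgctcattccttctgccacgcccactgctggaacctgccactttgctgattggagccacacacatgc
Ly6f (chr15:75110748-75110867, - strand): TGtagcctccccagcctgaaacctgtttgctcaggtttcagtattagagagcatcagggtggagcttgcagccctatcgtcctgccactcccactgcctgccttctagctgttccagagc
The Arntl2 and Nr1d2 probes differed by 3 base changes and the Arntl2 and Olfr855 probes by 7. The Olfr608 probe differed from the Arntl2 probe by 21 changes and the Ly6f probe by 53, over 120 bases. The 3 LTR-start probes near Skint9, a strong locus at 1 dose by the X bounds described below, differed from the Arntl2 probe by 23, 23 and 24 changes. They differed from the Olfr608 probe by 9, 11 and 13. Likeness at the LTR start thus did not separate the loci at 1 dose from the strongest loci. These values hold for the LTR start only. At the LTR end, the Arntl2 probe differed by 39 changes from the probe near Gm11115, another locus at 1 dose. It differed there by 22 changes from the Ly6f probe and by 47 and 51 from the Olfr608 probes.

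Among B6 loci, the 8 strongest with 1 dose by the first bounds that were missing from a B6/129 library are described next, with offspring doses by the X bounds. Near Pgk2, which encodes a sperm-specific glycolytic enzyme, the locus at chr17:40277026-40279489 held 306 to 460 RPM in the B6 libraries (median 398, lowest without T2379 325) and 267 and 256 RPM in the parents. The offspring ran from 4.24 to 372 RPM, with 0 doses in C6427 and C6428, 1 dose in 7 animals and 2 doses in T00434 and T00464. By the first bounds 6 offspring were at 2 doses. The B6 and parental levels did not overlap, and the 2 offspring without the locus lay far below all others.

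Near Arntl2, which encodes a clock transcription factor, the locus at chr6:146733500-146741301 held 296 to 447 RPM in B6 (median 326, highest without T2379 358), and 214 and 238 RPM in the parents. T00435 alone lacked it, at 7.92 RPM, and the other 10 offspring held 192 to 337 RPM. Near Nr1d2, which encodes a nuclear receptor of the same clock, the locus at chr14:19015123-19019258 held 259 to 364 RPM in B6 (at most 328 without T2379), 180 and 178 RPM in the parents and 0 to 2.88 RPM in T00434, T00464 and C6427. Near the olfactory receptor gene Olfr855, the locus at chr9:19406064-19409889 was at 0 doses in 4 offspring and at 1 dose in the other 7. Of these 4, T09674 alone was under 10 RPM, at 9.32 RPM, while the other 3 held 13.6 to 20.4 RPM.

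Near Olfr1338, another olfactory receptor gene on chromosome 4, the locus at chr4:118416325-118419796 was absent from the 3 WT-labelled offspring (1.36 to 4.33 RPM) and present in the 8 KO offspring (187 to 294 RPM). Near the predicted gene Gm11115, the locus at chr5:88596982-88598434 was absent from T00464 and C6427, and 5 offspring had 2 doses, or 9 by the first bounds. The remaining 2 of the 8 loci differed between the parents. The locus within the noncoding gene Gm14024 on chromosome 2 held 31.5 RPM in T3913 and 338 RPM in T3921, against 304 to 463 RPM in B6. The locus in an intron of Kbtbd12 on chromosome 6 held 183 RPM in T3913 and 4.74 RPM in T3921, against 139 to 299 RPM in B6 (at least 173 without T2379). At both, the mean of the parents fell between the bounds although 1 parent was below 0.3 of the B6 level.

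The X bounds added stronger loci. The locus near Skint9, a member of an immunoglobulin-like gene family, lies at chr4:112022990-112032759, on the chromosome of the deletion. It had the second highest B6 level among loci that the first bounds placed at 2 doses. It held 1750 to 1920 RPM in B6 (at most 1830 without T2379) and 1360 and 1400 RPM in the parents (ratio 0.768). The WT-labelled offspring held 55.6, 71.3 and 63.4 RPM and the KO offspring 1300 to 1880 RPM, so that it never fell below 10 RPM and was called in all 27 libraries. Near Eya1, which encodes a transcriptional regulator of ear and kidney development, the parents held 410 and 415 RPM against a B6 median of 565, and T00434 alone lacked the locus (2.71 RPM). Near Cpne4 the parents held 402 and 440 RPM against a B6 median of 560, and 6 of 11 offspring were below 15 RPM. The locus near Ly6f, by contrast, held 1280 to 1680 RPM in B6 (at least 1520 without T2379), 1620 RPM in each parent and 1590 to 1730 RPM in the offspring. The locus near Olfr608 held 2040 to 2220 RPM in B6, 1920 and 1950 RPM in the parents and 1180 to 2310 RPM in the offspring.

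**Figure D3:**
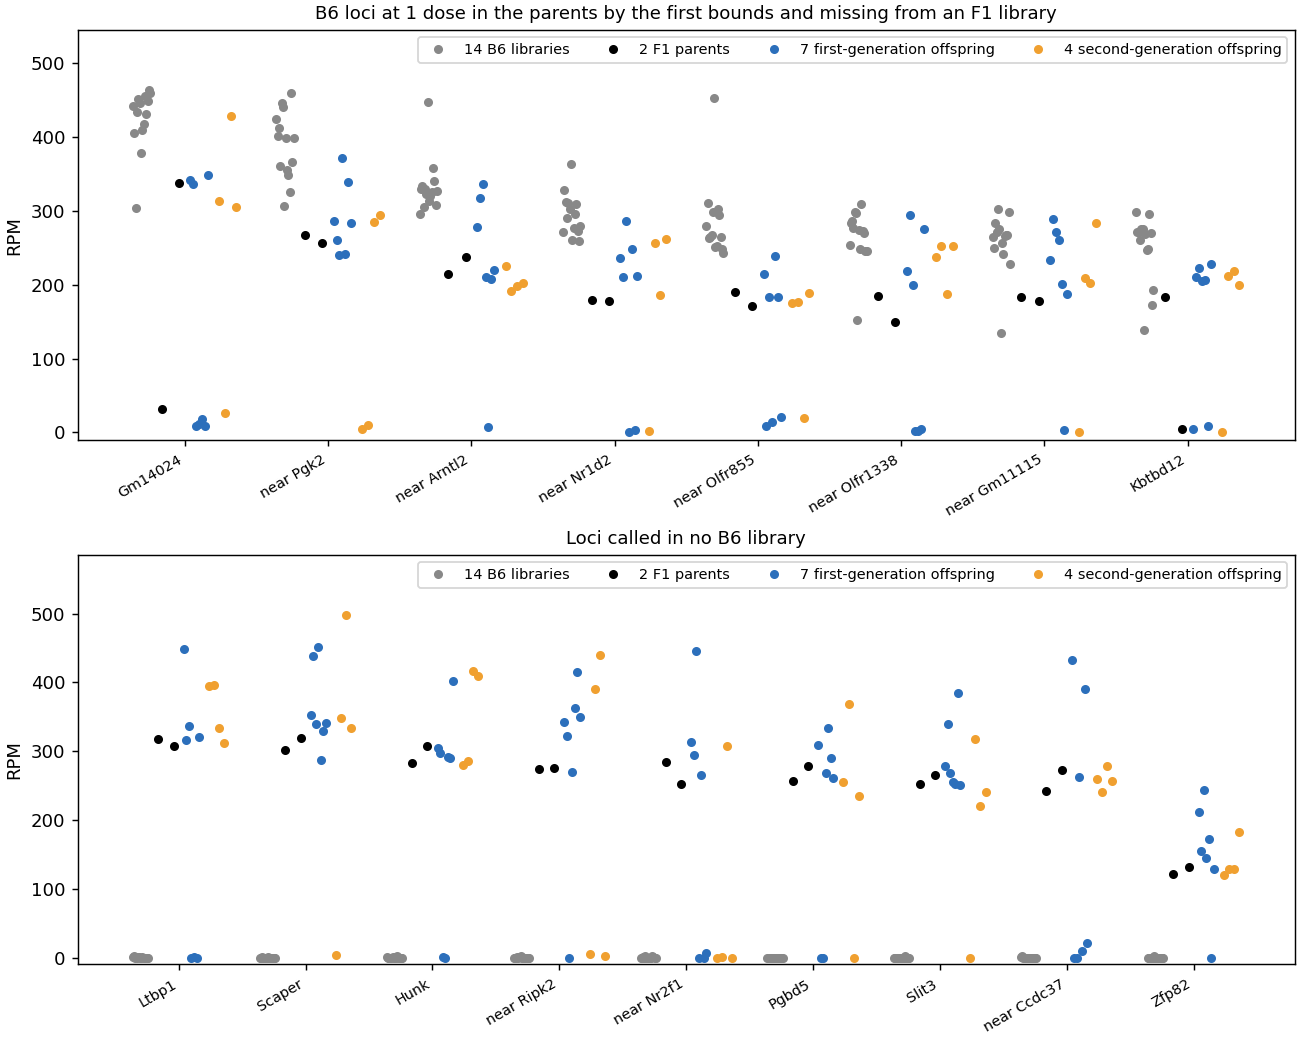
RPM of named loci, 1 point per library, with B6 libraries in grey, parents in black and offspring in blue (first generation) and orange (second generation). In the upper panel the parents lie below the B6 median at each locus and some offspring are near 0, while others reach into the B6 range, and in the lower panel every B6 library is near 0 and both parents hold at least 122 RPM.

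Both parents carried all 81 loci that no B6 library called, at a mean of 53.3 to 313 RPM (median 176). In B6 no library exceeded 8.38 RPM at any of them, and 17 loci had no read in any B6 library, which allows up to 0.264 RPM over the 14 libraries together (3 reads). Of the 11 offspring some lacked each of 79 loci, and 2 loci were called in all 13 B6/129 libraries. Chromosome 7 held 11 of the 81 loci (of 145 members), chromosome 4 held 9 (of 120), chromosome 8 held 8 (of 96) and X held 5 (of 125). They lay in a protein-coding gene in 24 cases (29.6%), 21 of them in introns, beside 20.8% of the B6 loci at 1 dose and 20.7% of all members.

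The strongest of these loci lay in or near genes of varied function. In an intron of Ltbp1, which encodes a protein that stores latent TGF-beta in the matrix, the locus at chr17:75498017-75501621 held 318 and 308 RPM in the parents and 0 to 1.91 RPM in B6. The offspring held 0 to 448 RPM, with the 3 WT-labelled animals at 0 to 1.32 RPM and all 8 KO animals at 312 RPM or more. This locus is not on the chromosome of the deletion, and a link to genotype was not tested. In an intron of Scaper, at chr9:55737075-55739277, the parents held 302 and 319 RPM and only C6427 lacked the locus (4.24 RPM). In an intron of Hunk, which encodes a protein kinase, at chr16:90434131-90436059, the parents held 283 and 307 RPM and T00436 and T00434 lacked the locus. In an intron of Slit3, which encodes a secreted guidance cue, at chr11:35202028-35203876, the parents held 253 and 266 RPM and C6427 alone lacked it.

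In an intron of Pgbd5, a gene derived from a transposase, the locus at chr8:126949043-126952216 had no read in any B6 library and held 256 and 279 RPM in the parents. It was absent from T09674, T00436 and C6429 and held 235 to 369 RPM in the other 8 offspring. A further 3 loci lay between genes, nearest to Ripk2, Nr2f1 and Ccdc37. Of these the locus nearest to Nr2f1 was absent from 6 of 11 offspring. The only locus of this kind that overlapped a coding exon, at chr7:30843747-30845185 in Zfp82, a zinc finger gene, held 122 and 132 RPM in the parents, at most 2.22 RPM in B6, and 120 to 243 RPM in 10 offspring. A locus marks reads beside an insertion, so the overlap with an exon does not place the element in it.

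The edgeR quasi-likelihood test over 2883 loci called 247 loci higher (8.57%) and 133 lower (4.61%) in the B6/129 libraries at a Benjamini-Hochberg adjusted p under 0.05. Among the 2280 members, 165 (7.24%) were higher and 98 (4.30%) lower, shares near those of all tested loci. The members called higher held all 81 loci found in no B6 library, at a median log2 difference of 8.87, and 76 loci called in all 27 libraries, at a median of 0.12. The smallest adjusted p of the 81 was 4.97e-17 and the largest 0.00724. The fitted differences depend on how reads near 0 are treated and are not bounds. Of the 216 loci at 1 dose, 43 were lower (19.9%, median log2 difference -0.42), against 35 of 1764 loci at 2 doses (1.98%). The loci near Pgk2 (-0.69, SE 0.32, adjusted p = 0.154) and Cpne4 (-1.20, SE 0.53, adjusted p = 0.133) did not pass. Without T2379, 374 loci were higher and 174 lower. The share of higher calls was 65.0% here and 54.1% with DESeq2, which called 240 loci higher and 204 lower.

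Parents alone differed from B6 at fewer loci. In the same fit with the generations split, 139 of the 2883 loci were higher in the 2 parents (4.82%) and 7 lower (0.243%). Among the members, 82 were higher (3.60%), of which 81 were the loci called in no B6 library, and 6 were lower (0.263%), of which 2 were at 1 dose. All 81 had an adjusted p of at most 0.0212 in this edgeR fit. The presence classes were read from the same libraries, so these calls restate them and are no separate evidence.

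The doses of the offspring were cut from their relative levels, so the medians per dose are a description. With the X bounds, and leaving out loci that 1 parent lacked, 203 B6 loci were classed at 1 dose in the parents. Not all of them need have 1 dose. Of all 216 loci at 1 dose by the X bounds, 66 fell below 0.3 of the B6 level in no offspring. A locus among the 203 held 0.481 to 0.558 of the B6 mean in all 11 offspring. Their median level in the offspring was 0.0353 of the B6 mean at 0 doses, 0.767 at 1 dose and 0.986 at 2 doses. At the 76 autosomal loci called in no B6 library, the levels were 0, 1.04 and 1.39 of the parental mean, and no combination of locus and animal lay between 0.25 and 0.5 of it, against 2.55% of combinations at the B6 loci. Absence stood clear of presence at the loci called in no B6 library, which their class rule of under 10 RPM in every B6 library favours. At B6 loci some combinations lay on either side of the bound of 0.3, and 1 and 2 doses ran into each other at both kinds of locus.

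**Figure D4:**
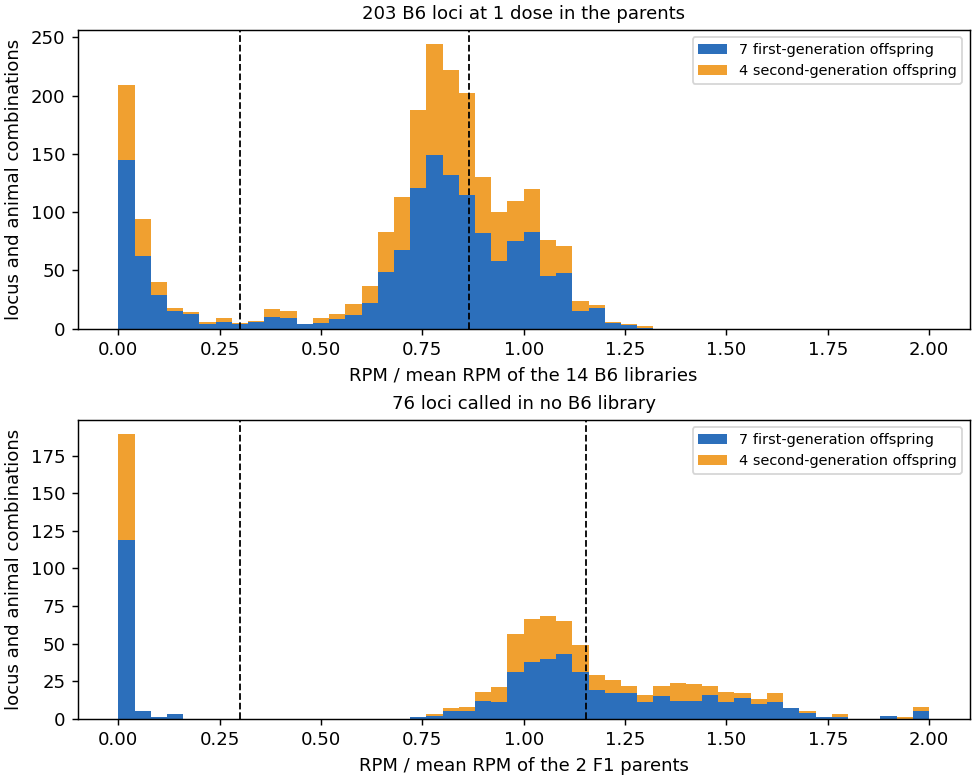
Stacked counts of locus and animal combinations in the 11 offspring by relative RPM, for 203 B6 loci over the B6 mean (upper) and 76 loci called in no B6 library over the parental mean (lower), with dashed lines at the bounds between doses (0.3 and 0.866 above, 0.3 and 1.15 below). A group near 0 is set apart in the lower panel and joined by few values to the rest in the upper, and the groups on either side of the second line run into each other.

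For a mating of 2 animals with 1 dose each, Mendelian inheritance gives 25% of offspring with 0 doses, 50% with 1 dose and 25% with 2. In the 7 first-generation offspring the B6 loci were at 0 doses in 19.4% ± 5.49 of loci (SD over animals), at 1 dose in 47.6% ± 3.64 and at 2 doses in 33% ± 4.72. The loci called in no B6 library were at 0 doses in 24.1% ± 6.43, at 1 dose in 40.4% ± 12.3 and at 2 doses in 35.5% ± 12. With the bounds set first, the B6 loci (38) were at 15.4% ± 8.24, 38.7% ± 9.57 and 45.9% ± 15. These 38 include loci that 1 parent lacked, such as those in Gm14024 and Kbtbd12. By the same bounds single parents were at 0 doses in 5.26% and at 2 doses in 34.2% of their combinations. The Mendelian shares above therefore do not apply to the 38, and the 2 sets of B6 loci are not alike. The loci called in no B6 library were 22.7% ± 8.42, 60.9% ± 15.8 and 16.4% ± 12.8, and for both kinds the split between 1 and 2 doses depended on the bound. Loci on a chromosome are inherited together, and no test was made over loci. B6 loci classed at 1 dose that every animal carried at a like level would change the shares of the B6 loci, and their number was not tested. The 7 animals were labelled KO/KO or WT and none KO/WT, so loci close to the deletion need not follow the Mendelian shares. Chromosome 4 held 20 of all B6 loci at 1 dose by the X bounds and 9 of the loci called in no B6 library. Single animals ranged from 14.5% to 32.9% at 0 doses for the loci called in no B6 library.

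The second generation could be set against its own parents, T09673 and T00869. Wherever both of these lacked a locus, all 4 offspring lacked it too, in 12 of 12 combinations of B6 loci and 12 of 12 of the loci called in no B6 library. By the X bounds, 4.56% of 812 combinations at B6 loci and 15.1% of 304 at the other loci had a dose that the 2 parental doses cannot give. With the bounds set first, the shares were 27.6% of 152 and 0.658% of 304. These shares cannot rank the bounds, because parents at 1 dose each can give any dose. At the 76 autosomal loci called in no B6 library, T00869 was at 1 dose in 67 and at 2 doses in 2 by the first bounds. By the X bounds it was at 1 dose in 45 and at 2 doses in 17. Where the parental doses excluded some dose, the shares at these loci were 1.09% of 184 (first bounds) and 18.5% of 248 (X bounds). A rule that seldom calls 2 doses leaves fewer contradictions to find. At B6 loci the shares rest on different sets, 38 loci by the first bounds and 203 by the X bounds.

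Loci that lay close together moved together. Neighbouring loci more than 1000 and up to 10000 bp apart can be the flanks of 1 element. Of 176 such pairs of autosomal B6 loci, 91.5% had the same class in the parents by the X bounds, and of 44 pairs with at least 1 locus at 1 dose, both were at 1 dose in 29 (65.9%). By the first bounds the class was the same in 95.5%, and both were at 1 dose in 4 of 12 pairs (33.3%). For comparison, 88.6% of all these loci were at 2 doses by the X bounds. In the offspring, presence or absence was the same on both sides in 273 of 275 combinations of 25 pairs (99.3%), and the dose was the same in 86.5%.

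Loci of opposite origin showed the reverse pattern. Each B6 locus at 1 dose was paired with the nearest locus called in no B6 library within 5 Mb on the same autosome, which gave 70 pairs at a median distance of 1340 kb. Where an offspring had 0 doses of the B6 locus, it had 2 doses of its neighbour in 130 of 145 combinations (89.7%), against 32.8% for loci on different autosomes. The 2 doses added up to 2 in 69.7% of 770 combinations, against 34.4% for loci on different autosomes. With the bounds set first, the neighbour had 2 doses in 12 of 34 combinations (35.3%), against 15.2%, and the sums were 2 in 56.0% against 36.7%. The pairs share animals and chromosomes, so these are descriptions without a test.

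The loci beside the Chr4-cl deletion were compared by genotype. The nearest B6 locus at 1 dose before the deletion, chr4:144439298-144446729 near Dhrs3, 0.527 Mb away, held 347 to 412 RPM in 13 B6 libraries and 518 RPM in T2379. It was 278 and 298 RPM in the parents, 33 to 64.9 RPM in the WT-labelled offspring and 336 to 390 RPM in the 8 KO offspring. The nearest beyond it, chr4:147667616-147670848 near Ptchd2, 0.440 Mb away, was 326 and 381 RPM in the parents, 0, 3.96 and 4.33 RPM in the WT-labelled offspring and 474 to 543 RPM in the KO offspring. By the X bounds the 8 KO offspring were at 2 doses of both loci, except T00436, which was called at 1 dose of the first (336 RPM). The 3 WT-labelled offspring were at 0 doses of both. T00436 lay on the bound itself, at 0.866 of the B6 mean of 388 RPM. That mean includes T2379, and the median of the other 13 B6 libraries was 377 RPM, so its dose there is not settled.

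**Figure D5:**
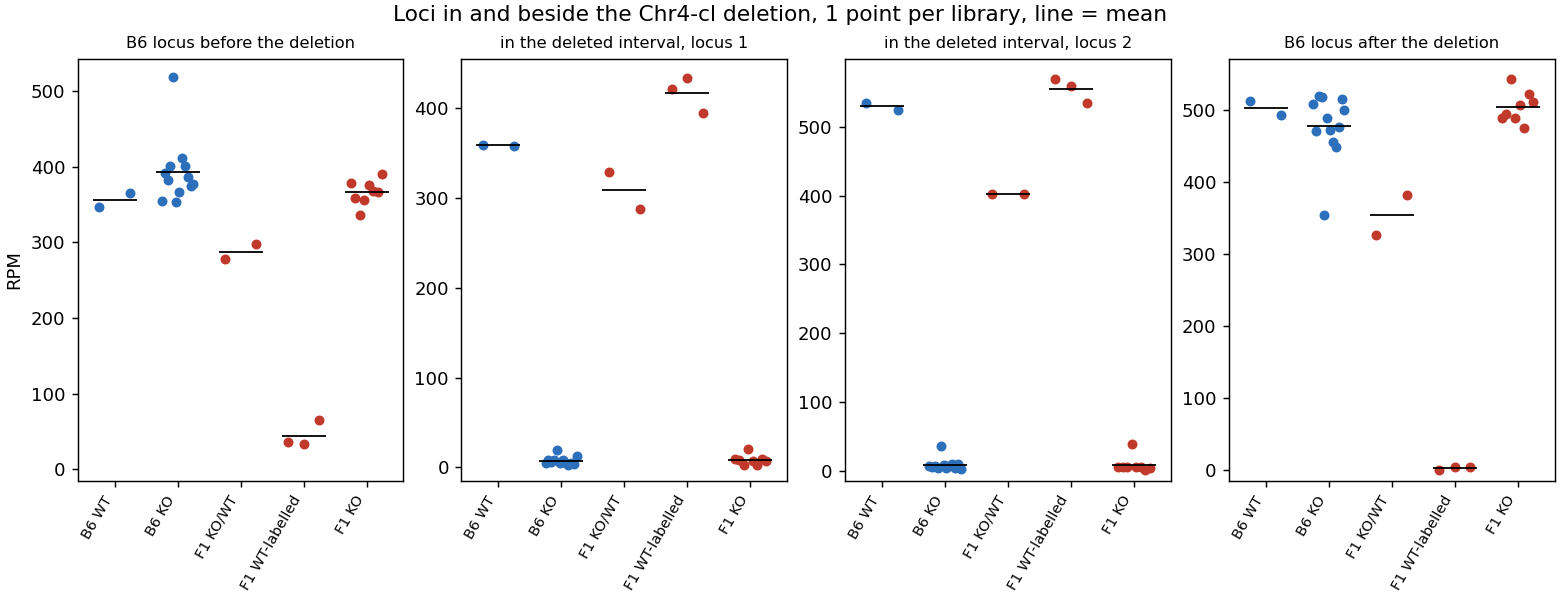
RPM of 2 B6 loci beside the Chr4-cl deletion (outer panels) and of 2 loci inside it (inner panels), 1 point per library in 5 genotype groups (B6 in blue, B6/129 in red), with the mean as a line. WT-labelled offspring are at most at 64.9 RPM in the outer panels and at or above the B6 WT level in the inner ones, and KO offspring show the opposite.

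On the X chromosome, 5 B6 loci were missing from some B6/129 libraries and 4 loci described here were absent from B6. The father T3921 held at most 9.48 RPM at each of the 5 B6 loci and 121 to 254 RPM at the 4 others, and the mother T3913 held 142 to 247 RPM and 118 to 266 RPM. The B6 loci were a pair in the noncoding gene Gm14558 and nearest to Slc6a14, a pair nearest to Tgif2lx1 and 1 nearest to the predicted gene 4932411N23Rik. The others lay near Dach2, Tgif2lx1 and 4932411N23Rik and in an intron of Col4a6. The sons C6429 and C6430 were at or below 14 RPM at all 5 B6 loci and held 126 to 273 RPM at the 4 others. The son T00869 held 153 to 261 RPM at the B6 loci, was at most 2.72 RPM at 3 of the others and held 265 RPM at the locus in Col4a6. The son T00464 lacked the first pair of B6 loci (at most 5.77 RPM) and held 144 to 261 RPM at those near Tgif2lx1 and 4932411N23Rik.

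Not every B6 locus was at 1 or 2 doses in the parents. A pair of loci on chromosome 11, chr11:9869763-9872686 and chr11:9875239-9877358 nearest to Abca13, held means of 235 ± 31.3 and 221 ± 33.6 RPM (SD, n = 14) in B6 and at most 6.29 RPM in either parent, and each was called in 1 of 13 B6/129 libraries. A second pair, at chr11:7860576-7865542 and chr11:7866698-7869685, was at 0.258 to 0.331 of the B6 level in both parents.

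In all, 17 autosomal loci called in every B6 library were below 0.3 of the B6 level in a parent, 9 in T3913 alone, 5 in T3921 alone and 3 in both. On chromosome 1, T3913 was at 2.52 RPM near Gulp1 (B6 mean 182, T3921 147) and at 10.1 RPM near Lrrfip1 (B6 mean 238, T3921 174). Near F3, the gene of tissue factor, T3921 was at 69.9 RPM against a B6 mean of 426 and 402 RPM in T3913, so that the carrying parent was at 0.942 of the B6 level.

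The B6 animals were not uniform either. Of the 87 loci called in only some B6 libraries, 16 had no call among the B6/129 libraries and 14 were called in all 13. The 87 include 3 loci on the Y chromosome, which females lack. They also include the loci at chr4:145019453-145021647 and chr4:145080501-145083011 inside the deletion, so sex and Chr4-cl genotype enter this count. The locus at chr1:39727070-39728535, which overlaps a coding exon of Rfx8, held 287 to 409 RPM in 8 KO animals, T2379 among them, and was called in 0 of the 2 WT animals, with at most 2.52 RPM in any B6/129 library. Another 2, on chromosome 3 near Il7 and in an intron of Dnajc5b, were called in the 2 B6 WT animals alone, at 253 and 270 RPM and at 326 and 325 RPM. The locus at chr5:63560278-63561533 was found in T2680 and T2682 alone, at 313 and 318 RPM.

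Residual reads hid further loci of this kind among those called in every B6 library. At 27 autosomal loci a B6 library other than T2379 fell below 0.3 of the B6 median. These included 4 loci between chr14:44062723 and chr14:44933377 that the parents held at 1.48 to 1.73 times the B6 mean. There 5 B6 libraries (T00431, T00432, T2613, T09693 and T09695) were below 0.3 of the B6/129 median at each of the 4, while the 13 B6/129 libraries held 239 to 495 RPM. At the locus over a coding exon of 4930503E14Rik, B6 ran from 10.3 to 319 RPM with a median of 285. At the 210 loci at 1 dose in the parents that no B6 library other than T2379 lacked, 68.6% were lacking in an offspring, against 69.4% of all 216.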

How the data were processed

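Genomic DNA was enriched with RNA probes complementary to the ends of ETn LTRs and sequenced as read pairs. Per the study's methods, the authors aligned both mates on their own to mm9 with Bowtie, removed duplicates with samtools, kept unique reads whose mate overlapped an ETn repeat, and merged reads within 1000 bp with bedtools. Versions were not found for these programs. Each deposited file holds read counts per region of 1 library, without normalization or pooling. The authors also removed regions at annotated and known polymorphic ETn elements before naming insertions, which was not done here, since inherited loci are the subject.

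Counts were divided by the library total to give reads per 1e6 ETn-paired reads (RPM). Regions at 10 RPM or more in any of the 87 libraries were joined within 1000 bp. Presence required 10 RPM, which is 5.25 reads in the shallowest and 10.5 reads in the deepest of the 27 libraries. Captured reads carry no molecular identifiers, so limits from read counts cover counting error only. Loci at 10 RPM in at least 2 of the 27 libraries were tested with edgeR 4.0.16 (quasi-likelihood, robust, library total as offset, R 4.3.3), and with DESeq2 1.42.0 as an alternative, at a Benjamini-Hochberg adjusted p of 0.05. Both the fits and the dose calls were tested on simulated data.

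Parental dose was the log2 ratio of the mean RPM of the 2 parents to the B6 mean at autosomal loci called in every B6 library, and 0 doses in an offspring was a level under 10 RPM (first bounds) or under 0.3 of the B6 mean, or of the parental mean at loci called in no B6 library (X bounds). Of the latter, 2 doses began at 1.15 times the parental mean by the X bounds. The X bounds and the relative rule for absence were chosen after seeing the data. The members and lists were chosen with earlier results of these data known. Named loci were the 8 strongest B6 loci at 1 dose by the first bounds and missing from a B6/129 library, the 8 strongest called in no B6 library, those over a coding exon, the 3 strongest at 2 doses and members of counts up to 5; loci named for the X bounds were chosen after their values were seen. All samples are single animals, and p values measure the spread between these related animals. Genes came from GENCODE vM1 on NCBIM37, the same assembly as mm9. Of 1274 ETn probes in the study's list, 1221 matched this assembly exactly at their stated place and were used. The values of 1 locus on the X chromosome are not reported here.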

Additional observations from a re-analysis of the deposited data

Results flagged for a closer look

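Samples far from the others of their group were looked for in 104 groups of 4 or 5 (and, for the X level, 6 and 8) libraries. Of these, 29 held one by Dixon's ratio (gap to the nearest library over the whole range). Chance alone gives about 1 in 20 where the samples of a group are alike. Offspring were tested at loci whose dose varies between siblings, and T2379 recurs in the list, so the 29 cannot be set against that rate. The ratios are given with the library's value and no explanation.

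The B6 KO library T2379 stood apart from the other 3 B6 KO parents near Eya1 (ratio 0.856, 415 RPM), Rragc (0.893, 312 RPM), Ptchd2 (0.839, 354 RPM), Arntl2 (0.863, 447 RPM), Rpl21-ps14 (0.982, 322 RPM), Olfr855 (0.962, 453 RPM), Cpne4 (0.861, 314 RPM), Pirt (0.899, 215 RPM) and Ly6f (0.857, 1280 RPM), and from the other B6 females in its X level (0.855, a level of 0.908). It was higher than the others at Arntl2 and Olfr855 and lower at the rest. The F4 library T09691 was high near Gm11115 (0.722, 302 RPM).

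Among the first-generation KO offspring, T09673 was high near Eya1 (0.881, 607 RPM), Ccdc37 (0.953, 433 RPM) and in Ltbp1 (0.848, 448 RPM), and low in Kbtbd12 (0.919, 4.43 RPM). T00436 was low in Gm14024 (0.962, 9.30 RPM) and near Ripk2 (0.920, 0 RPM) and Olfr608 (0.907, 1180 RPM), and high near Ptchd2 (0.891, 543 RPM). T09674 was high near Skint9 (0.867, 1750 RPM) and in Scaper (0.859, 438 RPM), and T00869 was low near Pirt (0.869, 44.8 RPM). In the second generation, C6427 was low in Kbtbd12 (0.909, 0 RPM) and near Rpl21-ps14 (0.990, 7.07 RPM) and high near Cpne4 (0.993, 438 RPM). C6429 was low near Olfr855 (0.918, 19.3 RPM) and high near Nr2f1 (0.996, 308 RPM), and C6430 was high near Pirt (0.992, 423 RPM) and in Zfp82 (0.857, 183 RPM).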

How the results depend on the processing

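Of the recomputed values of the main results, 175 kept their direction and stayed within 1.5 times the value, the spread between animals or their side of the threshold, and 7 moved. With membership at 200 RPM, 49 loci were called in no B6 library. Narrower bounds left 9 loci at 1 dose and the X bound gave 216, or 202 without T2379. Absence below 0.3 of the B6 level gave 180 loci missing from a B6/129 library. With the X bounds, loci called in no B6 library were at 1 dose in 40.4% and at 2 doses in 35.5% of first-generation combinations. These X and 0.3 settings were chosen after seeing the data. Leaving out each B6 library in turn, the X difference ran from -0.41 to -0.38 on the log2 scale. Leaving out either parent, the loci at 1 dose ran from 27 to 35 and those at 2 doses from 1936 to 1950. Leaving out each of the 27 libraries, the loci that differed between the sides ran from 327 to 548 and those that differed in the parents from 124 to 162. With 1 parent left, that parent was assumed to vary like the other groups. Of the named loci, those near Arntl2, Olfr855 and Olfr608 passed the threshold in 2, 4 and 4 settings, and 0 reversed. No paired analysis was possible because replicate numbers only name animals within a group and mark no shared animal, litter or day. Depth limits calls at 10 RPM to 5.25 reads in the shallowest library.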
